A study of Mus musculus with 20 samples.

Results

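Genes of glycolysis, glycogen metabolism and the pentose phosphate pathway were followed across 20 individually profiled cells of the mouse blastocyst's inner cell mass. The members were 37 named genes, found by the gene symbol that GEO's platform annotation gives each probe set of the array. Of these, 33 had a probe set of their own and are described here, out of 18193 genes with one. Gpi1, Eno1 and G6pdx had none, and Gapdh was read only by array controls and by probe sets shared with other genes. Where a gene had several probe sets, its levels are those of the brightest on average.

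Each array held amplified cDNA of 1 cell of C57BL/6 embryos at embryonic day 3.5. Of 55 cells picked after trypsin dissociation, 50 were Oct4-positive and Cdx2-negative by PCR, and the 20 cells on arrays form 1 group. The labels do not tie cells to embryos or give their sex, so a group of these cells counts as 1 sample. No p-value between cells was computed, and every SD is over cells. The cells are set against each other by their Fgf4 signal, a growth factor gene whose level split them into 10 positive cells (cells 1, 2, 7, 9, 12, 13, 14, 16, 18 and 19, deposited intensity 1568 to 4967) and 10 negative cells (cells 3, 4, 5, 6, 8, 10, 11, 15, 17 and 20, at most 5.37). The limit was an intensity of 500. These groups were made from the data, and Fgf4 itself is no result.

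Glycolysis turns glucose into pyruvate in the cytosol, and lactate dehydrogenase or the mitochondrial pyruvate dehydrogenase complex decides what becomes of the pyruvate. Glycogen phosphorylase and phosphoglucomutase release stored glucose units into the same pathway. The pentose phosphate pathway branches off to supply NADPH and ribose for nucleotides. The embryo relies mainly on pyruvate in its early cleavages and takes up far more glucose as the blastocyst forms. Several steps are carried out by isoenzymes from different genes, so a cell can run the same step with a different gene.

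Levels are log2(intensity + 8.75) after quantile normalization, which gives the arrays 1 common distribution, and they cannot fall below 3.29. The floor of an array, between 6.88 and 7.53, is the level under which 95% of 189 probe sets lie that read odorant, pheromone and trace amine receptors or genes of other organs. A cell is said to have a gene where the level is above the floor of its array. Levels of different probe sets are not compared with one another. The median deposited intensity was 14.97 in cell 19 and 25.6 to 30.1 in the others. Cells 4, 8, 17 and 20, all of them Fgf4-negative, had the lowest mean correlation with the others (0.584 to 0.625). Pou5f1, the gene for Oct4, was above the floor in 10 of 10 cells of each group. Nanog, Sox2, Klf2 and Utf1, which mark the epiblast, were above it in 10 of 10 Fgf4-positive cells and in 7, 8, 4 and 10 Fgf4-negative cells. Among the other epiblast markers listed, Prdm14 was above it in 8 positive and 2 negative cells and Bmp4 in 6 of each. Esrrb and Tdgf1 were above it in all 20 cells, Otx2 in 2 positive cells only and Fgf5 in 0 cells. The endoderm factors Gata4, Gata6 and Sox17 and the receptor gene Pdgfra were above it in 10 of 10 Fgf4-negative cells and in 0, 4, 1 and 5 Fgf4-positive cells. Cubn, Lama1 and Col4a1, from the same endoderm list, were above it in all 10 negative and in 1, 5 and 8 positive cells. Lamb1 and Sparc were above it in all 20 cells, Foxa2 in 2 negative cells only, and Dab2 and Sox7 in 0 cells. Cdx2, by whose absence in PCR the cells were chosen, read close to the floors (7.37 ± 0.44 and 7.48 ± 0.25, SD) and above them in 7 positive and 8 negative cells, which does not match that screen. Hand1 was above the floor in all 20, at an almost constant level (13.66 ± 0.08 and 13.73 ± 0.07, SD). Whether its probe set reads Hand1 transcripts at that level was not tested. Of 12 trophectoderm markers, no cell had Elf5, Gata3, Krt7, Krt18, Krt19 or Atp12a above its floor (0 of 20), and of the 6 compared 1 was at least 2-fold higher and 3 lower in Fgf4-positive cells. The mean level of that list ran from 5.37 to 6.87 in Fgf4-positive and from 6.00 to 6.96 in Fgf4-negative cells, and its part in the results was not tested.

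The promoters of 5 members are shown because the description below turns on these genes: Pfkl, Pfkp, Ldha and Pgk1 were lower and Pygb was higher in Fgf4-positive cells. Each is the window from 250 bases before to 50 bases after the start of the gene in RefSeq (build GRCm38.p6), printed 5′ to 3′ along the gene. Capitals mark ACGTG, the core of the hypoxia response element, on either strand (CACGT on the other), and also where it lies inside the palindrome CACGTG.
Pfkl, chr10:78009758-78010057, minus strand: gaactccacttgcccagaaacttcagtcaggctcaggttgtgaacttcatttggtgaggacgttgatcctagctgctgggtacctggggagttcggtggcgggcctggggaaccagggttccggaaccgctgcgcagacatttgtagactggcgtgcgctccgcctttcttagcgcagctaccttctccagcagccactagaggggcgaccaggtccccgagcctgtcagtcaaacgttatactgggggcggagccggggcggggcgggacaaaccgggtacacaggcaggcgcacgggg
Pfkp, chr13:6648722-6649021, minus strand: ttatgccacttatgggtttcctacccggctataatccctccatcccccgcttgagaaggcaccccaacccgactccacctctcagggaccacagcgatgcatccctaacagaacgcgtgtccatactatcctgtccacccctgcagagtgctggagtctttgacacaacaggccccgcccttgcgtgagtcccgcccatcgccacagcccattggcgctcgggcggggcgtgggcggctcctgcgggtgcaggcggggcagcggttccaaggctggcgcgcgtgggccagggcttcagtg
Ldha, chr7:46845554-46845853, plus strand: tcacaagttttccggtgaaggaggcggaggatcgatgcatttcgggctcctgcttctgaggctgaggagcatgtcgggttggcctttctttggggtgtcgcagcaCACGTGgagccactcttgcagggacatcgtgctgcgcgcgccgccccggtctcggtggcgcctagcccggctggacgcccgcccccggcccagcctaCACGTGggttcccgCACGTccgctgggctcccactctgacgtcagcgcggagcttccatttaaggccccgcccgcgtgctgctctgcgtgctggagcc
Pgk1, chrX:106186850-106187149, plus strand: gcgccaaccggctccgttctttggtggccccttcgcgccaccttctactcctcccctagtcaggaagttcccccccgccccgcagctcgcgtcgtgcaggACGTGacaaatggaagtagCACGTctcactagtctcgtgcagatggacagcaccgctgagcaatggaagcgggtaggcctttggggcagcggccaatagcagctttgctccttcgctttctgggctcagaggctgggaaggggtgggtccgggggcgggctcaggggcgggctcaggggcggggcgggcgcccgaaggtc
Pygb, chr2:150786546-150786845, plus strand: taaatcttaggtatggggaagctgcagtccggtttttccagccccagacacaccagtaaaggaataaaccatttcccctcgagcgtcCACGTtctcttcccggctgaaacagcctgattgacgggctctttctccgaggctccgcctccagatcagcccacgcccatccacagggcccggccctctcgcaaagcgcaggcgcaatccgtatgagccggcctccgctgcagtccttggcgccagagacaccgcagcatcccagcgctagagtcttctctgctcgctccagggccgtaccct
The windows of Pfkl and Pfkp hold no ACGTG, and the Ldha, Pgk1 and Pygb windows shown do. RefSeq gives Ldha another start, whose window (chr7:46846832-46847131) is not shown and holds no match. RefSeq windows were found for 36 of the 37 members, and 20 of them (55.6%) had the letters in at least 1 window, against 5886 of 27025 genes (21.8%). Counted by window, this was 46.0% of 50 member windows and 19.6% of all 32851. The member windows also had more G and C, with a median of 60.8% against 52.7%. Of the 5 members at least 2-fold lower in Fgf4-positive cells, 2 had the letters (Ldha and Pgk1), and of the 3 at least 2-fold higher, 1 had them (Pygb). AGATAA, a form of the GATA motif searched on both strands, was in a window of 2 members (5.6%, Pfkm and Eno3) and of 12.7% of all genes. A match describes letters only, and these windows leave out more distant sites.

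**Figure D1:**
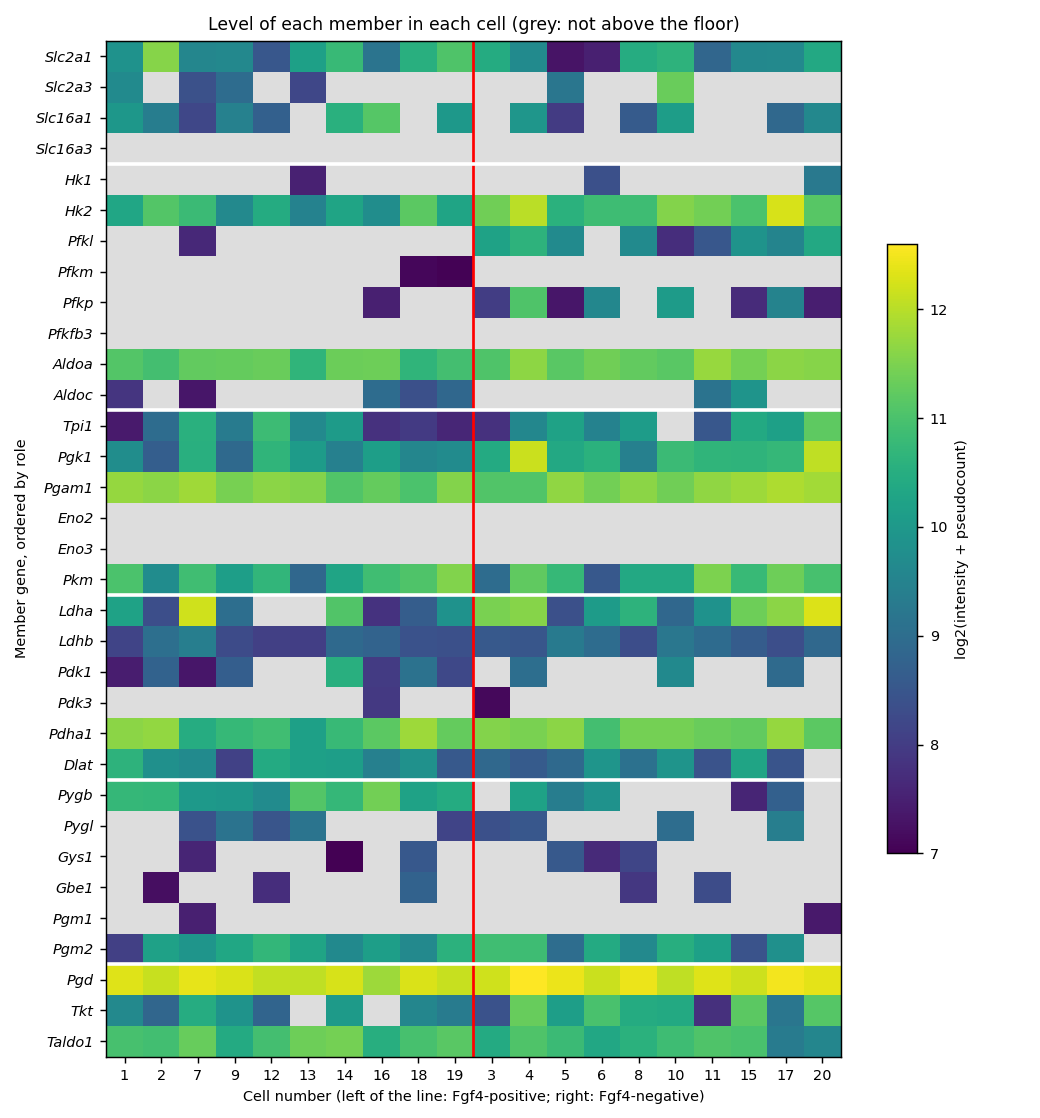
Level of the 33 members (rows, grouped by role) in each of the 20 cells (columns), as log2(intensity + pseudocount); grey cells are not above the floor of their array. Left of the line are the 10 Fgf4-positive cells, where the Pfkl and Pfkp rows are almost all grey, and right of it the 10 Fgf4-negative cells.

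Of the 33 members, 10 were above the floor in all 20 cells: Slc2a1, Hk2, Aldoa, Pgk1, Pgam1, Pkm, Ldhb, Pdha1, Pgd and Taldo1. The opposite set of Slc16a3, Pfkfb3, Eno2 and Eno3 was above it in 0 cells, and Pfkm, Pdk3 and Pgm1 in 2 cells each. The other 26 reached it in 3 cells or more and are compared between the groups. A single cell had between 17 (cell 13) and 24 (cell 7) of the 33 members above its floor, and the Fgf4 groups overlapped in this number, with 17 to 24 in positive and 18 to 21 in negative cells.

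Of the 26 compared members, 5 were at least 2-fold lower in the mean of the Fgf4-positive cells (Pfkl, Pfkp, Ldha, Tkt and Pgk1, 19.2%) and 3 at least 2-fold higher (Pygb, Pdk1 and Gbe1, 11.5%). Over all 9279 genes that pass the same filter, 8.19% were at least 2-fold lower and 11.9% at least 2-fold higher. The share of higher members was thus near that of all genes. The median difference was -0.03 for the members and 0.05 for all genes, with 13 members on either side of 0. In 6 members the difference exceeded the larger SD of the groups (Hk2, Pfkl, Pfkp, Aldoa, Pgk1 and Pygb, 23.1%), against 8.48% of all genes. No member separated the groups without overlap (0 of 26, against 0.28% of all genes). A gene that passed the floor only through the group where it is high had to differ, so these counts are a description of the members and no more. Leaving out cells 4, 8, 17 and 20 takes cells from the negative group only and keeps 10 positive and 6 negative cells. Of the 25 members then compared, 5 were higher, as Slc2a1 (1.03) and Slc16a1 (1.71) joined them, against 11.7% of all genes. The lower members numbered 4, since Pgk1 was then at -0.84, against 9.3% of all genes. Averaging the probe sets of each gene left 19 members to compare, of which 3 were at least 2-fold lower (Pfkl, Pgk1 and Ldha). Of all genes compared in that way, 6.8% were at least 2-fold lower. With levels under the floor raised to it, 1 of 26 members was at least 2-fold higher (Pygb), against 3.2% of all genes.

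**Figure D2:**
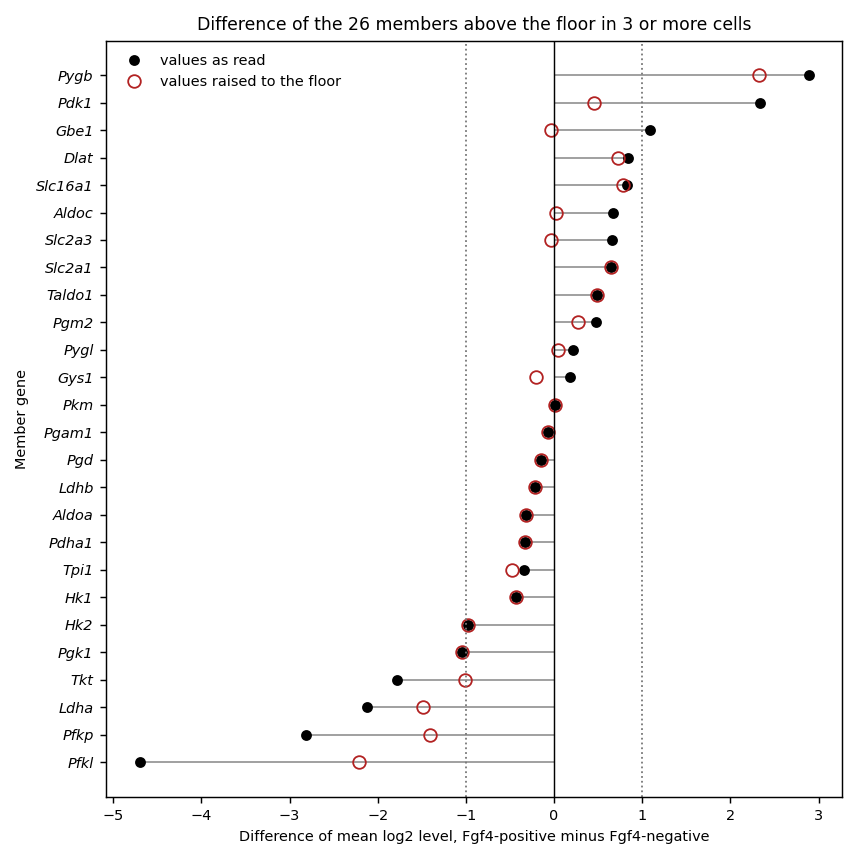
Difference of the mean log2 level, Fgf4-positive minus Fgf4-negative cells, of the 26 compared members, from values as read (filled) and after raising dimmer values to the floor (open); dotted lines mark 2-fold. Of the filled points, Pfkl and Pfkp lie farthest to the left and Pygb farthest to the right, and Pdk1 and Gbe1 move to within 2-fold once values are raised to the floor.

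Glucose enters a cell through facilitative transporters. Slc2a1, which encodes GLUT1, was found in all 20 cells, with levels of 8.51 to 11.59 (median 10.02) in Fgf4-positive and 7.30 to 10.62 (median 9.66) in Fgf4-negative cells. The groups overlapped, and the difference of 0.64 was within the SD over cells (0.93 and 1.21). All 3 Slc2a1 probe sets gave differences of 0.52 to 0.66. Slc2a3, the gene of the high-affinity transporter GLUT3, was above the floor in only 6 cells, always beside Slc2a1: cells 1, 7, 9 and 13 among the positive and cells 5 and 10 among the negative cells. Cell 10 had the highest Slc2a3 level, 11.33, and the other 14 cells read at most 4.03. Another Slc2a3 probe set was also above the floor in 4 positive and 2 negative cells, and the remaining ones in 0 cells. Slc16a1, the lactate and pyruvate carrier MCT1, was above the floor in 8 positive and 6 negative cells, from 3.45 to 11.13 and from 5.68 to 10.12, and Slc16a3 (MCT4) in none. The ancillary protein gene Emb, whose product escorts monocarboxylate carriers to the membrane, was above the floor in 0 of 10 positive and 7 of 10 negative cells, a level at least 3.42-fold lower in positive cells when the floor stands in for them. Bsg, the more widely used escort, was found in all 20 cells (9.42 ± 0.35 and 9.17 ± 0.59, SD).

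Hexokinase traps glucose in the cell by phosphorylating it. Hk2 was above the floor in all 20 cells, without Hk1 in 17 of them and together with Hk1 in cells 6, 13 and 20. Hk3, a hexokinase gene that is no member, also read above the floor in all 20 cells. Hk2 read 9.49 to 11.19 (median 10.30) in Fgf4-positive and 10.58 to 12.27 (median 11.27) in Fgf4-negative cells. The ranges overlapped, and the difference of -0.98 was larger than the SD of either group (0.59 and 0.53). Hk2 was the nearest member short of 2-fold lower, and Pgk1 (-1.04) the nearest past it; on the other side these were Dlat (0.84) and Gbe1 (1.09). The highest Hk2 levels were those of cells 17 (12.27) and 4 (12.02).

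Phosphofructokinase commits sugar to glycolysis, and its gene Pfkl had the largest difference of any member in values as read. Raised to the floor, that of Pygb was larger (2.32 against -2.21). Pfkl, the liver-type gene, was above the floor in 1 of 10 Fgf4-positive and 9 of 10 Fgf4-negative cells. In positive cells Pfkl read 3.29 to 7.65 with a median of 3.80, where cell 7 alone stood above its floor. In negative cells it read 3.30 to 10.61 with a median of 9.68, and only cell 6 was below. The difference of means was -4.70, larger than either SD (1.31 and 2.16), and -2.21 with levels raised to the floor. A second, dimmer Pfkl probe set was above the floor in 1 positive and 6 negative cells and gave -1.70, and the last in 0 cells.

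The platelet-type gene Pfkp showed the same contrast. It was above the floor in 1 positive cell, cell 16, and in 8 negative cells, with levels of 3.44 to 7.50 (median 5.06) against 5.01 to 11.05 (median 7.85). The difference was -2.81 (SD 1.41 and 2.01), and -1.41 raised to the floor, with groups that overlapped. Cells 4, 10, 6 and 17 had the highest Pfkp levels, from 9.51 to 11.05. Both other Pfkp probe sets were above the floor in 0 cells, so Pfkp rests on 1 probe set. The muscle-type gene Pfkm was above the floor only in the positive cells 18 (7.10) and 19 (7.03), close to their floors.

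Cell by cell, 7 of 10 Fgf4-negative cells had both Pfkl and Pfkp, cells 8 and 11 Pfkl alone and cell 6 Pfkp alone. Every negative cell thus had at least 1 phosphofructokinase gene above the floor. Of the positive cells, 6 had none of the 3 genes (cells 1, 2, 9, 12, 13 and 14), and this was so by any of their 7 probe sets. The other positive cells had Pfkl (cell 7), Pfkp (cell 16) or Pfkm (cells 18 and 19). With the floor at the 99th percentile of the same genes, 10 of 10 positive cells had none. Negative cells were not counted at that higher floor, so it gives no comparison of the groups. A gene under the floor is not absent, as weak signals cannot be told from background on these arrays. Pfkfb3, which makes an activator of phosphofructokinase, was above the floor in 0 cells. Of its relatives, Pfkfb4 was found in 4 positive and 7 negative cells and Pfkfb2 in 8 and 5. Their differences, -0.83 and 0.33, were each within the larger SD (1.84 and 0.46). Tigar, whose product removes that activator, was above the floor in 10 positive and 8 negative cells and read 10.37 ± 0.51 against 8.41 ± 2.08 (SD), a difference of 1.96 within the larger SD.

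**Figure D3:**
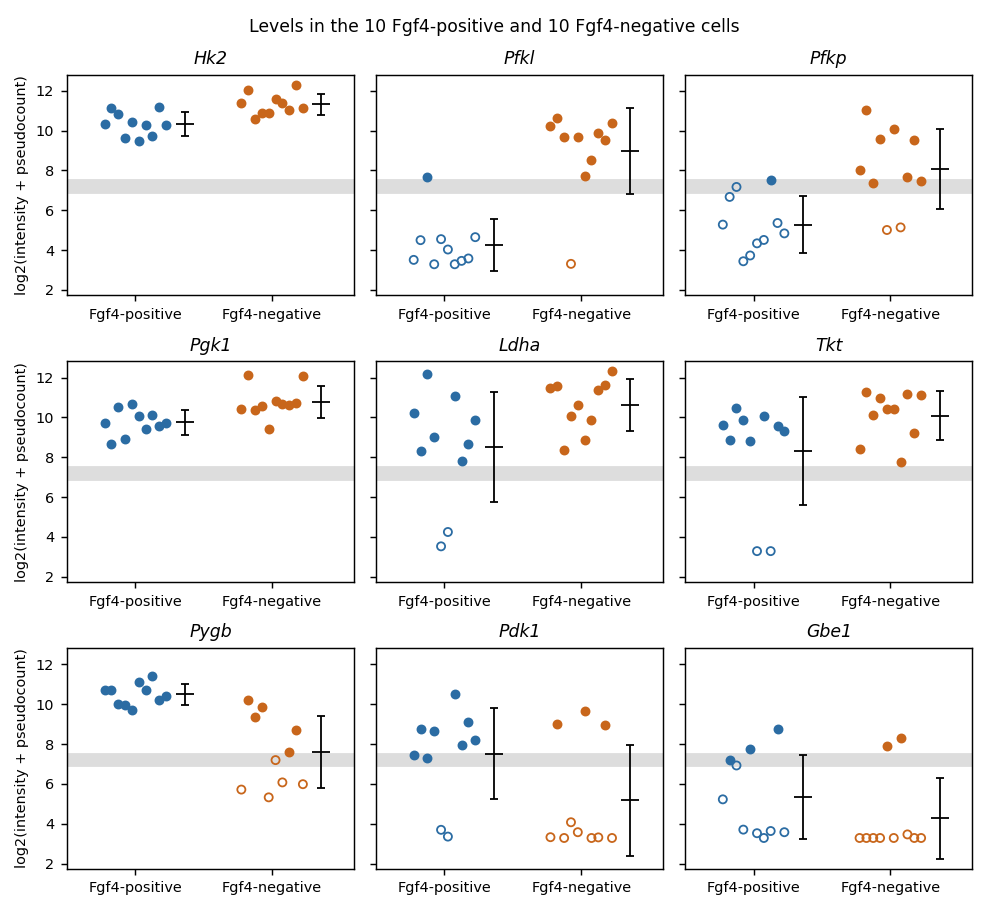
Levels of 9 members, as log2(intensity + pseudocount), in Fgf4-positive (blue) and Fgf4-negative cells (orange); filled points are above the floor of their array, open points are not, the grey band spans the floors of the 20 arrays, and bars give the mean and SD over 10 cells. Pfkl and Pfkp points are mostly open on the left and filled on the right, and Pygb is filled in all 10 Fgf4-positive cells.

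Aldolase splits the sugar into trioses. Aldoa was among the most even members (SD 0.30 over 20 cells). It read 10.66 to 11.37 in positive and 11.05 to 11.73 in negative cells, and its small difference of -0.32 exceeded both SDs (0.27 and 0.24). Its 5 probe sets gave -0.31 to -0.37, but all are of the _x_ kind, whose probes may also bind other transcripts. Without cells 4, 8, 17 and 20 the difference was -0.24 and no longer exceeded the larger SD. Aldoc, the brain-type gene, joined Aldoa in 5 positive and 2 negative cells, with its highest level, 9.90, in cell 15.

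From triose phosphate to pyruvate, Pgam1, Pkm and Tpi1 differed little between the group means, and of these only Pgam1 was even from cell to cell. Pgam1, a phosphoglycerate mutase, read 11.01 to 11.80 in positive and 11.07 to 11.91 in negative cells, with a difference of -0.07. Pkm, the pyruvate kinase gene of most tissues, differed by 0.01 with levels of 8.55 to 11.54, and the triose phosphate isomerase gene Tpi1 by -0.34, within its SD of 1.27 and 1.52. Both Eno2 and Eno3, the enolase genes of neurons and muscle, were below the floor everywhere, and Eno1 was not analysed here. Gapdh read by the array's own controls was bright and even at its 3′ end (deposited intensity 6496 to 8338, difference -0.05). Its 5′ control ran from 336 to 3400 and was 10.26 ± 1.13 in positive and 10.83 ± 0.59 in negative cells (SD, log2 scale, deposited values). The reach of the cDNA towards 5′ ends thus varied between cells, and its part in the differences of other genes was not tested.

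Pgk1, the phosphoglycerate kinase gene that yields the first ATP of the pathway, differed more. It read 8.67 to 10.67 (median 9.72) in Fgf4-positive and 9.43 to 12.15 (median 10.65) in Fgf4-negative cells. The ranges overlapped, the difference of -1.04 exceeded both SDs (0.64 and 0.80), and all 3 probe sets gave -1.04 to -1.19. Cells 4 and 20 were the highest (12.15 and 12.06), and without cells 4, 8, 17 and 20 the difference was -0.84. Pgk1 lies on the X chromosome, as do Pdha1 and Pdk3. The sex of the cells is not labelled: the Y-linked gene Eif2s3y was above the floor in 7 positive and 5 negative cells and Xist in 2 and 3, and their part in the result was not tested. Glycolytic genes such as Pgk1, Aldoa, Ldha and Gapdh have near-identical processed copies in the genome, which probe sets may not tell apart.

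Pyruvate can be reduced to lactate or oxidised in mitochondria. Ldha, whose subunit favours lactate formation, read 3.53 to 12.19 (median 8.84) in Fgf4-positive and 8.37 to 12.31 (median 10.98) in Fgf4-negative cells. It was above the floor in every negative cell and in 8 positive cells, the exceptions being cells 12 (3.53) and 13 (4.25). The difference of -2.12 was within the SD of the positive cells (2.76), and -1.49 raised to the floor, all by the single Ldha probe set of the array. Cell 7, the only positive cell with Pfkl, had the highest Ldha of its group. Ldhb, whose subunit favours pyruvate formation, read evenly in all 20 cells (8.54 ± 0.47 and 8.77 ± 0.35). That evenness rests on its 2 probe sets of the _x_ kind, whose probes may also bind other transcripts. The brightest probe sets of Tpi1, Dlat, Pgd and Tkt are of that kind too. The other Ldhb probe sets were above the floor in 1 and 0 cells.

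Pdk1 encodes a kinase that switches pyruvate dehydrogenase off. It was above the floor in 8 positive cells (all but cells 12 and 13) and in 3 negative cells (4, 10 and 17), with levels of 3.36 to 10.53 (median 8.09) against 3.29 to 9.65 (median 3.45). The mean difference was 2.33, within the SD of the negative cells (2.79), and 0.45 raised to the floor. Of its other probe sets, 1 gave 6 against 3 cells and a difference of 2.07, another 2 against 2 cells and -0.02, and the last 0 cells. Pdk3 was above the floor in cells 3 and 16 only, and Pdk2, another member of the family, in 0 positive and 6 negative cells, too dim for a fold. The cells without any of Pdk1 and Pdk3 were 2 positive and 6 negative.

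The subunit genes of pyruvate dehydrogenase differed less. Pdha1 was found in all 20 cells and differed by -0.33, within the SD of the positive cells (0.54). A dimmer Pdha1 probe set, found in 17 cells, gave -1.13. Dlat, the core of the complex, was found in 19 cells and differed by 0.84, within the larger SD of 1.22, while a dimmer probe set found in 7 cells differed by -1.63. Mpc1, a subunit of the mitochondrial pyruvate carrier, read 10.56 ± 0.66 in positive and 9.71 ± 0.52 in negative cells, a difference of 0.84 above both SDs.

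**Figure D4:**
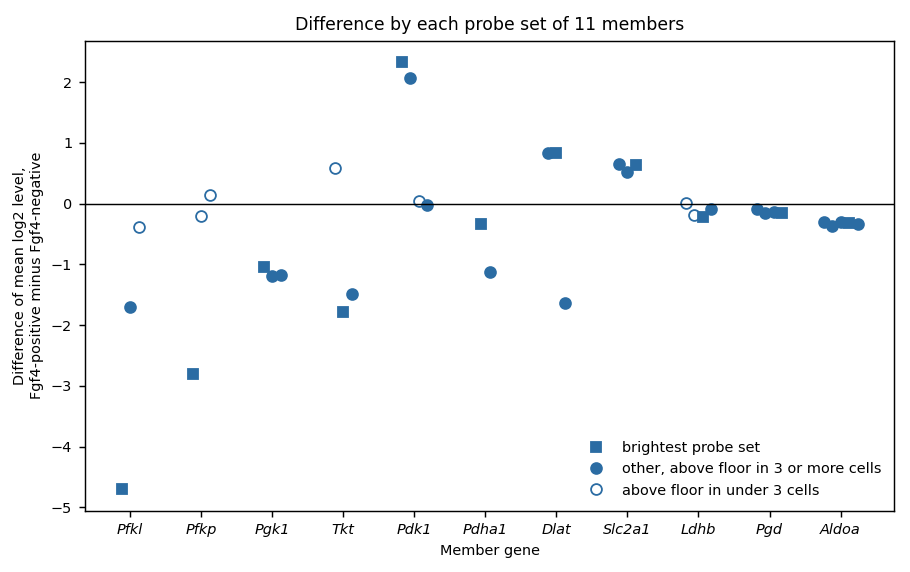
Difference of the mean log2 level, Fgf4-positive minus Fgf4-negative cells, by each probe set of 11 members that have several; squares mark the brightest probe set and open circles those above the floor in under 3 cells. The 3 Pgk1 and 5 Aldoa probe sets lie close together, while those of Pfkp, Pdk1 and Dlat spread.

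Among glycogen genes, Pygb stood out. It encodes the brain form of glycogen phosphorylase, which frees glucose units from glycogen, and was above the floor in 10 of 10 Fgf4-positive and 5 of 10 Fgf4-negative cells. In positive cells Pygb read 9.71 to 11.41 (median 10.57), an even level. In negative cells it ran from 5.33 to 10.23 (median 7.39), with cells 4, 6 and 5 highest and cells 8, 3, 20, 11 and 10 under their floors. The groups overlapped only through cells 4 and 6, and the difference of 2.89 (SD 0.54 and 1.83) was 2.32 raised to the floor. It rests on the single Pygb probe set of the array. Pygl, the liver form, was above the floor in 5 positive and 4 negative cells and differed by 0.22. Counting only Pygb and Pygl, 5 positive cells had Pygb alone and 5 had both forms, while 3 negative cells had Pygb alone, 2 had both, 2 had Pygl alone (cells 3 and 10) and 3 had neither (cells 8, 11 and 20).

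The other glycogen members were found in few cells, except Pgm2. Gys1, the glycogen synthase gene, was above the floor in 3 cells of each group. Gbe1, the branching enzyme gene, was above it in cells 2, 12 and 18 among the positive and 8 and 11 among the negative. Its difference of 1.09 was within both SDs (2.10 and 2.02) and was -0.03 raised to the floor, so no direction is given. Pgm2 was above the floor in 19 cells, all but cell 20, and differed by 0.48 (SD 0.75 and 1.77), and Pgm1 was above it in cells 7 and 20 only. 

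In the pentose phosphate pathway Pgd, the second dehydrogenase of its oxidative branch, was the most even of all members, with 12.18 ± 0.17 in positive and 12.33 ± 0.17 in negative cells and differences of -0.09 to -0.15 by its 4 probe sets. Tkt, the transketolase gene of the non-oxidative branch, was above the floor in every negative cell (7.77 to 11.30, median 10.43) and in 8 positive cells (3.29 to 10.46, median 9.45). Cells 13 and 16 read the lowest value possible there. The difference of -1.78 was within the SD of the positive cells (2.70), was -1.01 raised to the floor and -1.22 without cell 16. A dimmer Tkt probe set gave 4 positive and 7 negative cells and -1.49. Taldo1, the transaldolase gene of the same branch, went the other way by 0.49 (10.99 ± 0.33 against 10.51 ± 0.61), within the larger SD. Outside the members, Prps1, which makes the activated ribose used for nucleotides, is given because its groups did not overlap, and was picked after its values were seen. It read 12.27 ± 0.15 in positive and 11.39 ± 0.62 in negative cells, a difference of 0.88. It is X-linked.

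Within the groups some members varied together, given as a description over 10 cells that share the array and the amplification. Over the 325 pairs of the 26 members the median Pearson's r was 0.06 in Fgf4-positive and 0.03 in Fgf4-negative cells and for pairs of all genes it was 0 in both. Single pairs went far to either side. The highest values in the negative cells, picked as extremes, joined Pdk1 with Pygl (r = 0.82), Hk2 with Pdk1 (0.79) and Hk2 with Pygl (0.79). These rest on cells 4, 10 and 17, the negative cells with Pdk1, which also had Pygl and the highest Hk2 levels of their group. In positive cells the same pairs had r = -0.59, 0.33 and -0.45. The largest value of either sign in the positive cells was that of Hk1 with Tkt (-0.92, against 0.42 in the negative cells), where cells 13 and 16 had the highest Hk1 and the lowest Tkt. Only cell 13 of the positive cells had Hk1 above its floor, so this value rests largely on Hk1 levels under the floor. The highest values above 0 in the positive cells joined Hk2 with Gbe1 (0.84), Pgd with Tkt (0.83) and Aldoc with Pkm (0.83), which had r = -0.17, 0.05 and 0.34 in the negative cells. Here too levels under the floor take part, as Gbe1 was above it in 3 and Aldoc in 5 positive cells. Slc16a1 with Pdk1 had a like value in both groups (0.62 and 0.66).

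The other genes of these pathways showed no common direction. Of 30 further glycolysis genes, 27 had a probe set and 14 were above the floor in at least 3 cells, of which 2 were at least 2-fold higher in Fgf4-positive cells (Gpd1l, 2.25, and Tigar) and 2 lower (Emb and Pgam2). Pgam2, the muscle phosphoglycerate mutase gene, was above the floor in 0 positive and 6 negative cells, too dim for a fold. Of 12 further pyruvate oxidation genes, 9 were compared, with Pdp2, a phosphatase that switches pyruvate dehydrogenase on, higher (1.17, within the larger SD of 2.37) and Pdk2 lower. Of 20 further glycogen genes, 11 were compared, with 0 higher and 3 lower: Ppp1r3b, Ugp2 and Phkb, of which Ugp2, which makes the sugar donor for glycogen synthesis, differed by -1.31 within its SD (2.04 and 2.07). Of 9 further pentose phosphate genes, 5 were compared and Rpia was lower (-1.78, within its larger SD of 2.74). Of 7 gluconeogenesis genes, 4 were compared and Pck2 was higher (1.81, within its larger SD of 1.82). Raised to the floor, Pdp2 (0.61), Pdk2 (-0.49), Ppp1r3b (-0.48), Phkb (-0.22), Rpia (-0.53) and Pck2 (0.51) were within 2-fold, and Ugp2 (-1.19), Gpd1l (1.72), Tigar (1.55) and Emb (-2.10) were not. Pygm, the muscle form of glycogen phosphorylase, read an even level in all 20 cells (9.34 ± 0.13 and 9.43 ± 0.25), as did the hexokinase gene Hk3 (8.18 ± 0.20 and 8.12 ± 0.22). Whether their probe sets read Pygm and Hk3 transcripts at these levels was not tested.

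Hypoxia-inducible factors and MYC are known regulators of glycolytic genes. Of 7 compared genes of the hypoxia-inducible factor system, Epas1 and Vhl were at least 2-fold higher and 0 lower in Fgf4-positive cells. Epas1, a hypoxia-inducible alpha subunit, was above the floor in 8 positive and 2 negative cells (8.72 ± 2.76 against 5.46 ± 1.66), and its difference of 3.27 was 1.89 raised to the floor. Vhl, which marks these alpha subunits for degradation, differed by 1.35 within its larger SD (2.46), and by 0.26 raised to the floor. Hif1a, the other main alpha subunit, was found in 19 cells and differed by -0.67, within its SD (1.15 and 0.95). Of 9 compared hypoxia-responsive genes outside the members, Ankrd37 (1.64), Kdm3a (1.52), Mxi1 (1.52) and Bnip3 (1.42) were at least 2-fold higher in positive cells, and raised to the floor only Kdm3a stayed past 2-fold (1.52). P4ha1, a collagen prolyl hydroxylase gene named after its values were seen, was lower (-1.26, 10.03 ± 0.52 against 11.29 ± 0.68). Myc was above the floor in 10 positive and 7 negative cells with a difference of 2.24, and Mycn in 5 and 7 with -1.77, each within the larger SD. The Mycn difference was -1.04 raised to the floor, -0.68 with averaged probe sets and -0.17 with the pseudocount from the 10th percentile.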

How the data were processed

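Per the labels' protocols, cDNA was made in the crude lysate of a cell, amplified by PCR and labelled by the Affymetrix one-cycle method. The authors deposited 1 linear intensity per probe set, between 1 and 26616, and 10.1% to 13.4% of an array's values lie at that minimum. No source used here gives the summary software, background correction or scaling. From 45101 probe sets, 64 controls were left out; 34945 named 1 gene, 932 several and 9160 none. The 2%-trimmed means ran from 181.2 to 219.7, so arrays were quantile normalized. The pseudocount is the median 25th percentile. At most 0.008% of values were identical in any pair of arrays.

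Differences are Fgf4-positive minus Fgf4-negative means, computed with pandas 2.3.3 and numpy 2.4.6 and tested on simulated data. Named genes are members at least 2-fold apart or differing by 5 or more cells above the floor, the most even members, and up to 4 such genes of each further list. The members, lists, settings and Fgf4 split were chosen with earlier results of these data known. Bsg, Pfkfb2, Pfkfb4, Mpc1, Prps1, Hk3, Pygm, Hif1a and P4ha1 lie outside that rule and were chosen after their values were seen. Precision is limited by having 20 arrays. The alternatives tried are given in the closing section. No test was run between cells.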

Additional observations from a re-analysis of the deposited data

How the results depend on the processing

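The counts and differences were recomputed on the deposited values, with a pseudocount from the 10th percentile or of 50, with levels raised to the floor, with the floor at the 99th percentile, with no filter or at least 10 cells above the floor, with the mean of all probe sets, without cell 19, cell 16, or cells 4, 8, 17 and 20, and with the Fgf4 split made by the floor. The number of members at least 2-fold lower was 5, and 3 averaging probe sets, where Pfkp and Tkt came within 2-fold, and the total was 8 and then 5. The number higher was 3, 1 with levels raised to the floor and 5 without cells 4, 8, 17 and 20. The shares of all genes moved with the setting too. They ran from 3.2% to 14.7% for higher and from 2.8% to 9.8% for lower genes, lowest with levels raised to the floor. Fgf4-positive cells without a phosphofructokinase gene numbered 6, and 10 with the higher floor. The phosphofructokinase count was recomputed only for the floor, the deposited values and the averaged probe sets, and only in Fgf4-positive cells. Every other count was within 1.5 times its value. Gbe1 reversed, from 1.09 to -0.03, with levels raised to the floor, which places each dim cell at the floor of its own array. These floors differ, so a member above the floor in 0 cells, such as Slc16a3, then differed by -0.12. A raised difference of that size or less, as for Gbe1, has no readable sign. Pfkl (-5.68 to -2.21), Ldha (-2.36 to -1.49) and Pygb (2.32 to 2.99) stayed past 2-fold in all 12 settings. Not all of these settings could change a difference. The higher floor and the filters on cells above the floor leave it as it was, and the split by the floor gave the same groups. Averaging probe sets cannot change Ldha or Pygb, which have 1 probe set each. Pfkp was -0.95 and Tkt -0.89 with the mean of all probe sets, Pdk1 0.45 raised to the floor, and Pgk1 -0.84 without cells 4, 8, 17 and 20; the cause was not tested. No paired analysis was possible because the cells form 1 group. Signal over the floor limits every statement on a gene not found in a cell.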
